A study of Homo sapiens with 4 samples.

Results

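FLI1 was knocked out in HK1 cells, and the regions of open chromatin in the untreated knockout cells (FLI1-KO, library sgFLI1) were compared with those in untreated wild-type (WT) cells. Every peak of these 2 libraries on chromosomes 1 to 22 and X was a member: 59629 in WT and 63203 in sgFLI1, together 122832 of the 250225 peaks listed in the series. A peak that shared at least 1 bp with a peak of the other list was called shared, and any other peak was called WT-only or sgFLI1-only. This gave 12767 WT-only peaks (21.4% of the WT list, 95% Wilson interval 21.1 to 21.7%) and 15968 sgFLI1-only peaks (25.3%, 24.9 to 25.6%). The remaining 46862 WT peaks and 47235 sgFLI1 peaks were shared.

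HK1 is an established human nasopharyngeal carcinoma line, and accessibility was measured by ATAC-seq, in which a transposase inserts adapters into open DNA. The 2 libraries differ in genotype (WT or FLI1 knockout) and carry the same treatment label, Control. A second pair, WT-IFN-γ and sgFLI1-IFN-γ, was exposed to interferon-γ and has no library in common with the untreated pair, so it served as a separate look at the same genotypes. Each group held 1 library, so the spread between replicates is unknown, no test between groups was run, and all intervals are for counting error only. Of the pair of human FLI1 guides that the study lists, the one used for this library is not stated, nor whether the cells were a clone or a pool. A single clone could also differ from WT in ways unrelated to FLI1, and with 1 library this cannot be told apart from the knockout.

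FLI1 is a transcription factor of the ETS family, which binds DNA around a GGAA core and is best known for its roles in blood and endothelial cells and for the fusion protein of Ewing sarcoma. ATAC-seq peaks mark promoters and distal regulatory elements that are free of nucleosomes. Other factors named below read their own short motifs in such elements: AP-1 is a dimer of FOS and JUN proteins, RUNX factors carry a runt domain, C/EBP factors are leucine zipper proteins, FOX factors share the forkhead domain, and CTCF binds insulators and the anchors of chromatin loops.

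The 8 sequences that follow were picked from the leading regions outside annotated exons, because they show the motif letters that the comparison of classes turns on. Each is a 201-base window of GRCh38 centred on the summit, plus strand, from 5′ to 3′. Capitals mark matches on either strand to the searched motifs, which for these windows were AP-1 (TGANTCA), RUNX (TGTGGTTT), C/EBP (TTGCNNAA) and FOX (TGTTTAC). The SOX5 promoter holds no match to any of the 19 motifs searched.
Lower in sgFLI1, SEMA5A intron, chr5:9348439-9348639: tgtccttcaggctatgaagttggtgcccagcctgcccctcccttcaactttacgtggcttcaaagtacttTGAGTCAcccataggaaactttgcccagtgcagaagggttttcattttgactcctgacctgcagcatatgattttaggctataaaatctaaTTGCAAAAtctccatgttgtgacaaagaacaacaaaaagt
Lower in sgFLI1, SOX5 promoter, chr12:24561984-24562184: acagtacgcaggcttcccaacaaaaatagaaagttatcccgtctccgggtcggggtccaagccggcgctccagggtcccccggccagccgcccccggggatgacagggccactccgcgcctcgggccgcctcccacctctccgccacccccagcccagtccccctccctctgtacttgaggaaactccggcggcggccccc
Higher in sgFLI1, intergenic region nearest LPCAT1, chr5:1555548-1555748: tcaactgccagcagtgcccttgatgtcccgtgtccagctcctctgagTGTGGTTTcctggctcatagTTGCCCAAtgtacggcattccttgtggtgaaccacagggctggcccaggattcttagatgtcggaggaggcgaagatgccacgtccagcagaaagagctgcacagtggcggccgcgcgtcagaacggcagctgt
Higher in sgFLI1, FPR3 intron, chr19:51799410-51799610: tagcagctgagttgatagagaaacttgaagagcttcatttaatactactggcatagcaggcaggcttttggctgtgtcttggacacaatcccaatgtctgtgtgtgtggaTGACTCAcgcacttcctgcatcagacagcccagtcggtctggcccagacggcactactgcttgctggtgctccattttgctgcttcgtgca
Higher in sgFLI1, ARHGAP31 intron, chr3:119311511-119311711: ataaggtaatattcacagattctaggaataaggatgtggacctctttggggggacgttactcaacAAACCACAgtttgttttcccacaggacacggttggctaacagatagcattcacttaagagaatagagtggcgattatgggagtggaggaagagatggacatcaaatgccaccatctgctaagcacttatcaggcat
Higher in sgFLI1, ALK promoter, chr2:29223951-29224151: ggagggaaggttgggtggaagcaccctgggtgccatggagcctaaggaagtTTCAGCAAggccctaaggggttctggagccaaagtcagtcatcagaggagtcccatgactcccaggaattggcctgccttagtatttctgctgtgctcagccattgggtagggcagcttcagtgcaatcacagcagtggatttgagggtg
WT-only, GUCY1A2 intron, chr11:106706431-106706631: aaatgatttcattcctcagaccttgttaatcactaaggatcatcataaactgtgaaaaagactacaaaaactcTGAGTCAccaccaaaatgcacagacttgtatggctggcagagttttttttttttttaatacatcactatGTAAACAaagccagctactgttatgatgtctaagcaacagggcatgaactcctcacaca
sgFLI1-only, MAP2 intron, chr2:209431788-209431988: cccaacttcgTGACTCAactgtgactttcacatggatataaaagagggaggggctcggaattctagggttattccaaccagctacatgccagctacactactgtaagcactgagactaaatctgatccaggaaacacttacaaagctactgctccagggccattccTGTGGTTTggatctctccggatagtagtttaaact

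The strength of a peak is given as its pileup, the whole number of tags stacked over the summit, recovered from the fold enrichment and −log10 p of each peak. The background of WT came to 8.04 tags per kb and that of sgFLI1 to 6.93, so sgFLI1 was the shallower library, while WT-IFN-γ (8.84) and sgFLI1-IFN-γ (6.86) were the deepest and the shallowest. Promoter peaks at epithelial marker genes were listed for 7 of 10 genes in WT and 8 of 10 in sgFLI1, including EPCAM, KRT5 and KRT17, whereas KRT14 and GRHL2 had none. Blood markers had promoter peaks at 2 of 6 genes in WT and 1 of 6 in sgFLI1, endothelial markers at 1 of 4 and 0 of 4, fibroblast markers at 2 of 5 in both, and neural markers at 2 of 3 in both, with COL1A1 (142 and 132 tags) and TUBB3 (146 and 143) as strong as the epithelial SFN (129 and 139).

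Peaks found in 1 list were weak. WT-only peaks had a median pileup of 15 tags (10th to 90th percentile 10 to 29) against 40 in shared WT peaks, and sgFLI1-only peaks had a median of 12 tags (8 to 28) against 36 in shared sgFLI1 peaks. In the 20% of the WT list with the lowest −log10 q, 59.8% of the peaks were WT-only, and in the 20% with the highest 0.168%. For sgFLI1 these shares were 71.2% and 0.253%. Of the peaks in the top 10% of their list, 4 were WT-only and 1 was sgFLI1-only. The surplus of sgFLI1-only over WT-only peaks depended on the length of the lists: with the sgFLI1 list cut by −log10 q to the size of the WT list, there were 12957 sgFLI1-only and 13291 WT-only peaks.

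The WT list was scaled to the depth of sgFLI1 to ask how many WT-only peaks the shallower library could have listed. At the scaled pileup and background, 11414 of the 12767 WT-only peaks (89.4%) would have passed the lowest significance listed in sgFLI1. They had already passed a −log10 p of 3.12 in WT, and the scaling allowed for no counting error. No share of shared peaks is given beside it. Scaled up in turn, 15966 of the 15968 sgFLI1-only peaks would have been listed in WT, a count nearly fixed in advance. These peaks had passed a −log10 p of 3.13 in the shallower library, and scaling up raised them against a WT limit of 3.12. A scaled pileup of at least 3 times the tags needed was reached by 249 WT-only and 584 sgFLI1-only peaks. The counts are not comparable, because scaling went down for WT-only peaks and up for sgFLI1-only peaks. A pileup below the listing limit is not recorded, so no fold is given for these peaks.

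Both classes lay far from promoters. Only 10.2% of WT-only peaks (9.64 to 10.7%) and 9.98% of sgFLI1-only peaks (9.52 to 10.5%) had their summit within 3 kb of the transcription start site (TSS) of a protein-coding gene, against 30.9% of the shared peaks in either list. Shared peaks weighted to the same ranks lay within 3 kb in 14.4% and 15.3% of cases. Introns held 40.5% of WT-only and 38.3% of sgFLI1-only peaks, and intergenic DNA held 46.5% and 48.9%. The median distance to a TSS was 33.3 kb for WT-only and 34.5 kb for sgFLI1-only peaks, and 14.5 kb for shared peaks of both lists.

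**Figure D1:**
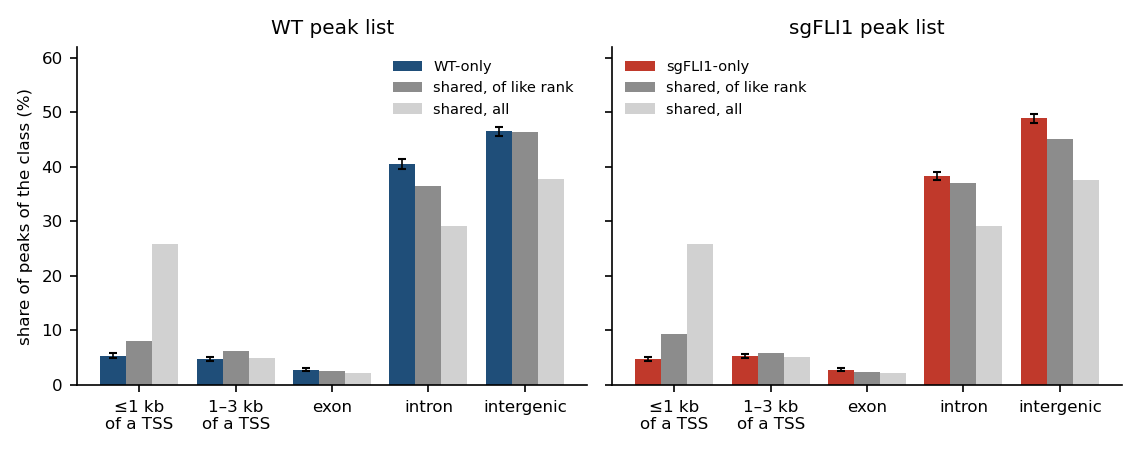
Share of peaks (%, y axis) by the place of the summit (x axis) for peaks found in 1 list (coloured, with 95% Wilson intervals), for shared peaks weighted to the same ranks (dark grey) and for all shared peaks (light grey). Left, WT list; right, sgFLI1 list: within 1 kb of a TSS lay 5.40% of WT-only and 4.73% of sgFLI1-only peaks, against 25.9% and 25.8% of the shared ones.

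Motif matches differed between the classes, and the sequence had no part in how the classes were drawn. AP-1 matches stood in 25.2% of the windows of sgFLI1-only peaks (24.5 to 25.9%) and 18.3% of those of WT-only peaks (17.6 to 19.0%). Shared peaks of like rank had 21.0% in the sgFLI1 list and 25.4% in the WT list, so the only-peaks lay on opposite sides of their references. RUNX followed the same order, with 3.73% of sgFLI1-only windows (3.44 to 4.03%) and 1.79% of WT-only windows (1.57 to 2.03%). Among peaks whose scaled pileup was at least 2 times what the other list required, AP-1 matches reached 37.9% of 3843 sgFLI1-only windows and 21.5% of 2237 WT-only windows, and RUNX matches 5.93% and 1.83%.

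The opposite order was seen for CTCF, FOX, homeobox (TAATTA) and GRHL motifs. CTCF matches stood in 9.31% of WT-only windows (8.81 to 9.82%) and 4.30% of sgFLI1-only windows (4.00 to 4.63%), and FOX matches in 4.29% and 2.71%. Shared peaks of like rank held CTCF matches in 8.30% of the WT list and 10.2% of the sgFLI1 list. The homeobox letters were present in 5.37% and 3.14%, and the GRHL letters AACCNGTT, read by the grainyhead-like factors of epithelia, in 1.61% (1.41 to 1.85%) and 0.983% (0.842 to 1.15%). Windows with the longer ETS letters CCGGAAGT, the motif of FLI1's own family, made up 0.235% of WT-only (0.165 to 0.335%) and 0.251% of sgFLI1-only peaks (0.184 to 0.341%), and those intervals overlap. Base composition differed beside these shares, with a mean GC content of 46.4% in WT-only and 49.9% in sgFLI1-only windows, and its part in them was not tested.

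**Figure D2:**
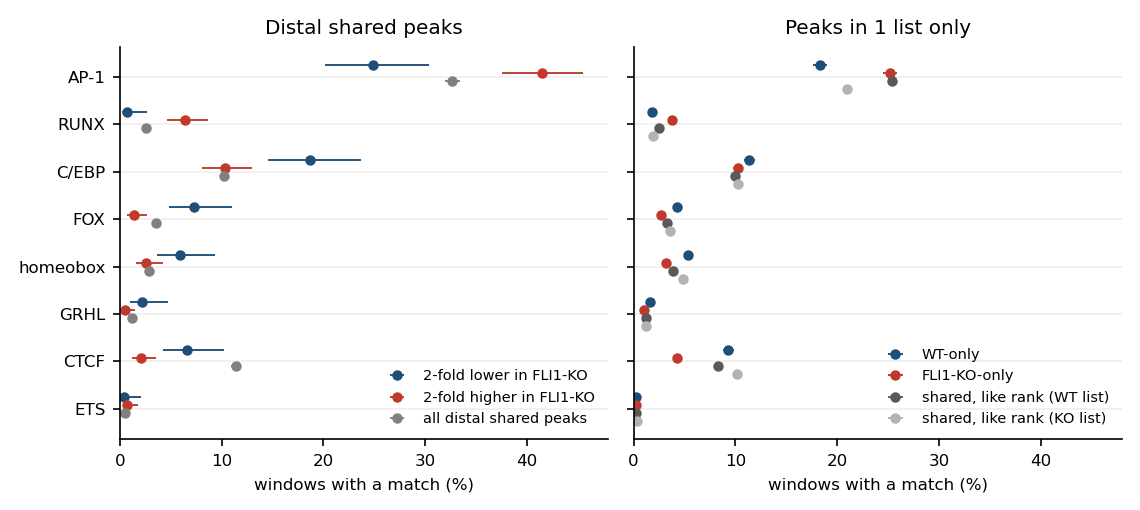
Share of 201-base summit windows with a match on either strand (%, x axis) for 8 motifs (y axis). Left, distal shared peaks at least 2-fold lower (273) or higher (583) in sgFLI1 and all 15758 distal shared peaks with a ratio; right, peaks found in 1 list and shared peaks of like rank; bars are 95% Wilson intervals, and AP-1 and RUNX shares are highest in peaks higher in sgFLI1 on the left, while on the right sgFLI1-only peaks lie above their own like-rank reference (25.2% against 21.0% for AP-1) and WT-only peaks below theirs (18.3% against 25.4%).

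The treated libraries showed how far the classes came back in other cells of the same genotypes. Of the WT-only peaks, 31.2% had a peak in WT-IFN-γ and none in sgFLI1-IFN-γ, and 7.38% had the reverse. For shared WT peaks of like rank these shares were 14.7% and 13.4%. Of the sgFLI1-only peaks, 21.4% had a peak in sgFLI1-IFN-γ and none in WT-IFN-γ, and 10.9% the reverse, against 9.36% and 22.8% in shared peaks of like rank. A peak in neither treated list was found for 43.3% of WT-only and 50.6% of sgFLI1-only peaks, against 12.4% and 13.9% of shared peaks of like rank.

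Stronger members came back more often. Of the 249 WT-only peaks with at least 3 times the tags needed, 46.6% were listed in WT-IFN-γ alone, 45.0% in both treated libraries and 4.02% in sgFLI1-IFN-γ alone. Of the 584 such sgFLI1-only peaks, 44.2% were listed in sgFLI1-IFN-γ alone, 44.7% in both and 5.99% in WT-IFN-γ alone. Where both treated lists held a peak, the median log2 ratio of sgFLI1-IFN-γ to WT-IFN-γ tags per tag density was -0.15 for the WT-only group and 0.54 for the sgFLI1-only group. Neither treated list held 4.42% and 5.14% of these strong members.

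The WT-only peaks with the largest margins included several that were absent from both FLI1-KO lists. The strongest lay in an intron of CCDC200 (chr17:43251456-43251775) with 229 tags in WT cells, 195 after IFN-γ, and neither FLI1-KO library listed a peak there. A peak in an intron of GUCY1A2, which encodes a subunit of soluble guanylate cyclase, had 63 tags in WT cells and 40 after IFN-γ. An intergenic peak nearest SNX13 had 59 and 67 tags, and one nearest HAPSTR1 had 100 and 122 tags, again with no FLI1-KO peak. Other leaders did not keep to genotype: the AKAP17A promoter peak (90 tags in WT), in the part of X that pairs with Y, was listed in both treated libraries (105 and 41 tags), and an intergenic peak nearest DHRS4 (70 tags in WT) was listed in sgFLI1-IFN-γ (35 tags) but not in WT-IFN-γ. The last 4 of the 10 lay nearest KBTBD2, FAM177B, ANXA1 and NCF1, with 41 to 94 tags. NCF1 has near-identical copies, as do GRAP and ANKRD36C among the sgFLI1-only leaders, so the placement of their reads is uncertain.

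Among the sgFLI1-only leaders, 5 of 10 were listed in sgFLI1-IFN-γ and not in WT-IFN-γ. An intergenic peak nearest CDH17, which encodes an intestinal cadherin, had 73 tags untreated and 57 with IFN-γ. The intronic peak in CLPB, a mitochondrial disaggregase gene, had 46 and 43 tags, and a peak near the KTN1 TSS had 42 and 27. The other two were nearest METTL4 (37 and 24 tags) and ANKRD36C (45 and 22). The MAP2 intron, whose sequence is printed above, had 46 tags in sgFLI1, 35 in sgFLI1-IFN-γ and 23 in WT-IFN-γ, so it was missing from the WT list alone. The highest pileup, 76 tags in a region of chromosome 21 whose nearest gene is TPTE, recurred in neither treated list, and the GRAP and CYBRD1 peaks (49 and 41 tags) recurred in WT-IFN-γ alone (49 and 82 tags). The ASAH2 peak (34 tags) was listed in both treated libraries.

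Genes were ranked by their surplus of peaks of 1 class over the other, so the named genes differ between the classes by construction. A gene and 10 kb upstream held at least 5 more WT-only than sgFLI1-only peaks at 49 of 19970 protein-coding genes, and at least 5 more sgFLI1-only peaks at 113. The classes held 12767 WT-only and 15968 sgFLI1-only peaks. SOX5, a SoxD family transcription factor gene on chromosome 12, had 12 peaks in WT and 1 in sgFLI1. Of the 12, 11 were WT-only, with 11 to 43 tags, and the remaining one was the promoter peak. The treated libraries had 17 and 1. The longest run of consecutive WT-only peaks in the genome, 21 peaks over 1.53 Mb (chr12:22975017-24501182), ended in this gene, and 16 of them had a peak in WT-IFN-γ but 2 in sgFLI1-IFN-γ.

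PDE4D, a cAMP phosphodiesterase gene, had 40 peaks in WT, 27 in sgFLI1, 41 in WT-IFN-γ and 28 in sgFLI1-IFN-γ. RBMS3, which encodes an RNA-binding protein, had 19, 8, 20 and 7 in the same order. ENSG00000283563 overlaps RBMS3 and shares its peaks (19, 9, 21 and 10). DMD, the dystrophin gene, had 15, 6, 14 and 2. SLC25A21, a mitochondrial carrier gene, had 14, 4, 11 and 4. LINGO2 had 9, 1, 8 and 2, and NELL2 had 8, 0, 5 and 1. In every one of these 8 genes the FLI1-KO libraries held fewer peaks than the WT library of the same treatment. For the untreated pair this was largely set by the ranking. LINGO2 lay in a 10 Mb bin where shared peaks were higher in sgFLI1 (median log2 ratio 0.64), RBMS3 in one where they were lower (-0.17), and SOX5 in one at -0.12.

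Genes richest in sgFLI1-only peaks were less alike in the treated libraries. Peak counts of both gene groups were not corrected for depth. WT-IFN-γ was the deepest library (8.84 tags per kb, 67470 peaks) and sgFLI1-IFN-γ the shallowest (6.86, 59923 peaks). The part of depth in the treated counts was not tested. MYLK, the myosin light chain kinase gene, had 16 peaks in WT and 27 in sgFLI1, and 18 and 22 in the treated pair. KAZN, which encodes a protein of desmosomes and the cytoskeleton, had 23 and 35, then 21 and 28. ADAMTS12, a secreted metalloproteinase gene, had 7 and 17, then 2 and 10, and SLC9A9, a sodium/proton exchanger gene, had 5 and 15, then 10 and 15. ENSG00000239920 on chromosome 11 had 9 and 21, then 14 and 21. The glypican genes GPC5 and GPC6 had 11 and 23 and 13 and 22 untreated, but 23 and 21 and 19 and 21 with IFN-γ. HS6ST3, a heparan sulfate sulfotransferase gene, had 6 and 17 untreated and 8 in each treated library. GPC5, GPC6 and HS6ST3 lie on chromosome 13 in bins with a median log2 ratio of 0.22. MYLK, SLC9A9 and ADAMTS12 lay in bins at 0.19, 0.17 and 0.14, and KAZN and ENSG00000239920 in bins at 0.07 and 0.05. The counts were not corrected for these shifts, and the part of the shifts in them was not tested.

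**Figure D3:**
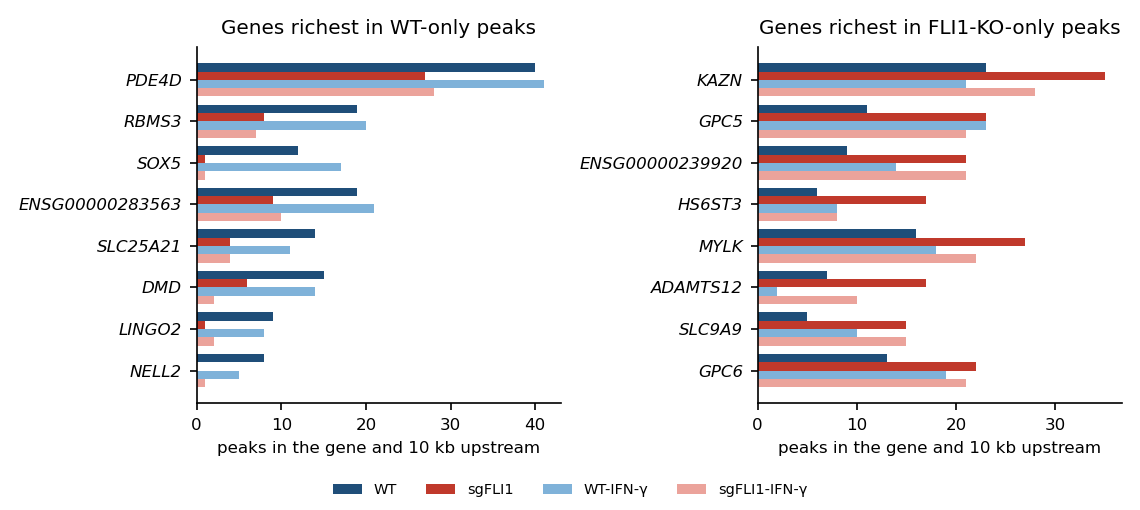
Number of peaks in the gene body and 10 kb upstream (x axis) in each of the 4 libraries for the 8 genes with the largest surplus of WT-only peaks (left) and of sgFLI1-only peaks (right). Left, the WT bars exceed the FLI1-KO bars in both pairs, as at SOX5 with 12 against 1 and 17 against 1; right, the order holds in the treated pair for 6 of the 8 genes, not for GPC5 (23 and 21) or HS6ST3 (8 and 8). The last place was shared by 2 genes on the left and 6 on the right, and ties went to the gene with more peaks of the class, then by name. Counts were not corrected for depth or for the 10 Mb bins, and the untreated order was largely set by the ranking.

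For peaks present in both lists, accessibility was compared by the log2 ratio of sgFLI1 to WT pileup, each divided by its tag density. Of 45942 peaks that overlapped one to one, the 28027 with at least 60 tags in the 2 libraries together were used. The ratio was centred on its genome-wide median (0.05), and the median of its 10 Mb bin was then subtracted, because whole stretches of chromosome were shifted. Of 286 such bins, 40 lay below -0.15 and 46 above 0.15, from -0.92 to 0.85. The same bins correlated with those of the treated pair (Pearson r = 0.93, 286 bins, a description), and a difference in DNA copies cannot be told apart from a broad difference in openness. WT-only peaks made up 29.3% of the WT list in bins under -0.30, and sgFLI1-only peaks 35.0% of the sgFLI1 list in bins over 0.30 but 15.9% in bins under -0.30. By chromosome, the sgFLI1-only share ran from 15.7% on chromosome 19 to 38.3% on chromosome 13.

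Most shared peaks were alike in the 2 genotypes. A ratio within 1.5-fold was found for 86.8% of the 28027 peaks, and 645 (2.3%) were at least 2-fold higher and 340 (1.21%) at least 2-fold lower in sgFLI1. The threshold fell within a continuous range of ratios, and the higher peaks just inside and just outside it both had a log2 ratio of 1.00 to 3 digits, with the lower ones as close. Distal peaks, more than 3 kb from a TSS, supplied 583 of the higher and 273 of the lower peaks. Within 1 kb of a TSS, 95.7% of 10730 peaks lay within 1.5-fold, 34 (0.317%) were higher and 55 (0.513%) lower.

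In the treated pair, 27436 of these peaks were listed in both libraries, and 534 (1.95%) of them were at least 2-fold higher and 362 (1.32%) at least 2-fold lower in sgFLI1-IFN-γ. Of the 612 untreated 2-fold higher peaks among them, 565 had a ratio above 0 in the treated pair and 244 were again at least 2-fold higher, with a median log2 ratio of 0.86. Of the 307 lower ones, 286 had a ratio below 0 and 126 were again at least 2-fold lower, with a median of -0.85. A further 32 of the higher peaks were listed in sgFLI1-IFN-γ alone and none in WT-IFN-γ alone, and 33 of the lower peaks were listed in WT-IFN-γ alone and none in sgFLI1-IFN-γ alone. Across the 27436 peaks, 59.7% had a ratio of the same sign in both pairs. The ratios of the pairs had a Pearson correlation of 0.52 and a Spearman correlation of 0.37. Peaks within a library share its depth and cutting preferences, and they are not replicates.

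**Figure D4:**
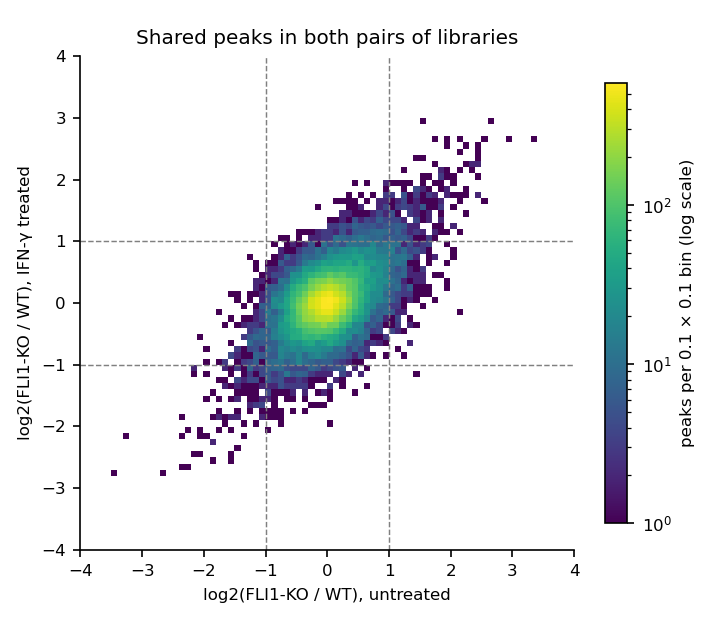
Block-corrected log2 ratio of FLI1-KO to WT pileup in the untreated (x axis) and the IFN-γ-treated (y axis) pair for 27436 shared peaks, as the number of peaks per 0.1 by 0.1 bin (colour, log scale); dashed lines mark 2-fold. The cloud is centred near 0, and its untreated 2-fold arms extend to the same side in the treated pair (565 of 612 higher and 286 of 307 lower peaks). Of all 27436 peaks, 59.7% had the same sign in both pairs.

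Peaks within 1 kb of a TSS that were lowest in sgFLI1 lay at LMO7, SOX17, MCTP2, VAV3, CROT and SOX5. A gene can have several start sites, and for 5 of the 12 genes with the lowest and 5 of the 12 with the highest peak ratios, the promoter peak with the most tags was another one that did not reach 2-fold. LMO7, which encodes a LIM domain protein of cell junctions (chr13:75760178-75761178, summit 8 bp upstream of a TSS), had 75 tags in WT, 8 in sgFLI1, 86 in WT-IFN-γ and 15 in sgFLI1-IFN-γ. Its log2 ratio was -3.23 untreated (95% interval -4.49 to -2.18), a 9.38-fold difference, and -2.15 treated. The strongest LMO7 promoter peak was a different one, with 71 and 92 tags (0.37, -0.09 to 0.84). SOX17, an endodermal transcription factor gene, had 63 and 8 tags untreated (-2.81, -4.08 to -1.74) and 53 tags in WT-IFN-γ, with no sgFLI1-IFN-γ peak. At SOX5 the promoter pileups were 63 and 12 tags (-2.10, -3.13 to -1.20), and 91 and 12 in the treated pair. At all 3 peaks each FLI1-KO library was below both WT libraries or had no listed peak. The untreated order follows from how the peaks were chosen, and the intervals do not allow for that choice.

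MCTP2, a gene for a calcium-binding membrane protein, and CROT, which encodes a peroxisomal carnitine acyltransferase, also lacked a sgFLI1-IFN-γ peak: MCTP2 had 66, 11 and 76 tags in WT, sgFLI1 and WT-IFN-γ, and CROT had 84, 15 and 82. VAV3, a guanine nucleotide exchange factor gene, had 60 and 12 tags untreated and 65 and 8 treated, with log2 ratios of -2.26 and -2.66. BCAR3, an SH2 adaptor gene, had 56 and 13 tags, then 42 and 16. Stress-responsive NIBAN1 had 67 and 20, then 56 and 18, and VWA3B had 58 and 15, then 99 and 29. The polarity kinase gene PRKCZ had 50 and 16, then 44 and 19, and USP54 had 80 and 26, then 35 and 15. Only CARD10, a scaffold gene of NF-κB signalling, went from 48 and 15 tags to 25 and 22, and it was the one peak of the 12 that was neither lower per depth nor unlisted in the treated FLI1-KO library. The strongest promoter peaks of BCAR3 (81 and 83 tags), CARD10 (41 and 38), USP54 (136 and 115) and PRKCZ (137 and 111) were other peaks, with log2 ratios of 0.22, -0.01, -0.17 and -0.20.

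CBX5, the gene of heterochromatin protein 1α, had the promoter peak with the highest ratio (chr12:54259353-54259629, summit 187 bp downstream of a TSS). It had 11 tags in WT, 98 in sgFLI1, 20 in WT-IFN-γ and 95 in sgFLI1-IFN-γ, with log2 ratios of 3.37 (2.47 to 4.42) and 2.62. The strongest CBX5 promoter peak, at another start site, was nearly equal (235 and 223 tags, 0.14, -0.13 to 0.41). CPN2, a subunit of a plasma carboxypeptidase, had 14 and 79 tags and then 14 and 66. ALK, a receptor tyrosine kinase gene, had 16 and 73 and then 18 and 68 tags (2.25, 1.45 to 3.13, and 2.28 treated). At these 3 peaks the pileup was at least 3 times as high in either FLI1-KO library as in either WT library. They too were chosen for their untreated ratio.

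Calcium and phosphate hormone gene STC1 had 12 and 48 tags untreated and 11 and 51 treated. PDE4B, a second cAMP phosphodiesterase gene, had 25 and 96, then 21 and 76, which is the opposite direction to the loss of peaks inside PDE4D. PLEKHG5 had 15 and 63 tags untreated and 41 in sgFLI1-IFN-γ, and PLEKHA6 had 22 and 55 and then 52 in sgFLI1-IFN-γ, both with no WT-IFN-γ peak. EMP2, a tetraspan membrane protein gene, had 30 and 75, then 19 and 54. The metalloproteinase gene MMP19 had 22 and 51, then 30 and 42, and SMIM10 had 17 and 45, then 27 and 33. SH3KBP1, an endocytic adaptor gene, had 21 and 45, then 35 and 41, and lies in a bin of the X chromosome with a median of -0.61, which raised its corrected ratio to 1.87 from 1.27. IL7R, the interleukin-7 receptor gene, had 31 and 79 tags untreated but 100 and 92 treated, a log2 ratio of 0.22. The strongest promoter peaks of PLEKHG5 (104 and 99 tags), SH3KBP1 (72 and 54), EMP2 (92 and 60) and PLEKHA6 (75 and 47) were likewise other peaks, with log2 ratios of 0.03, 0.36, -0.18 and -0.63.

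**Figure D5:**
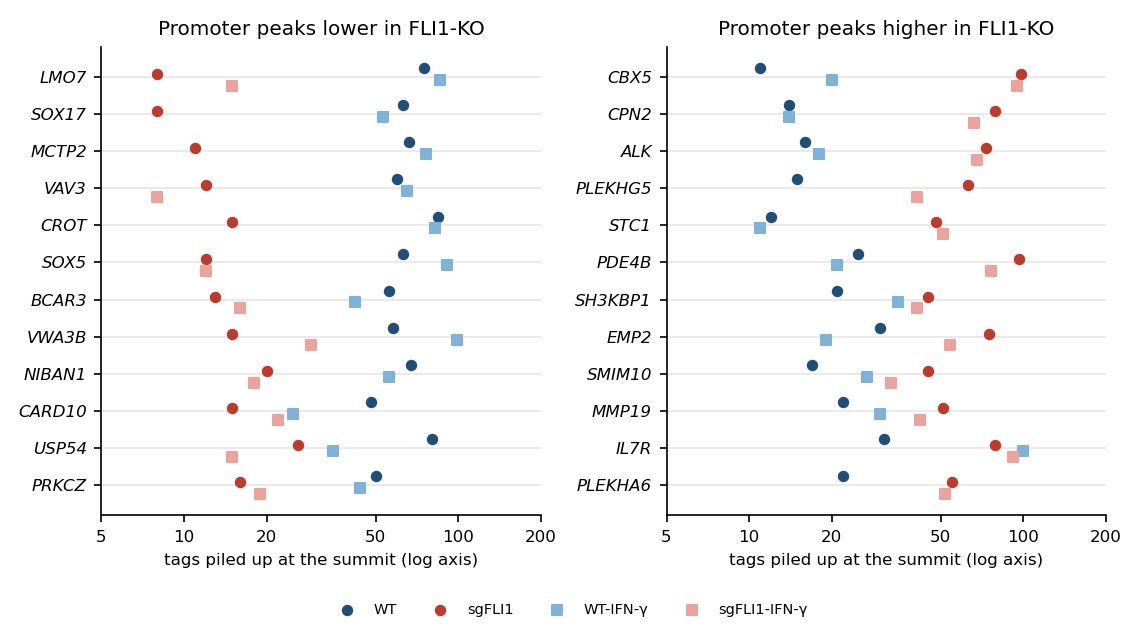
Tags piled up at the summit (x axis, log scale) in each of the 4 libraries for the 12 promoter peaks with the lowest (left) and the 12 with the highest (right) untreated ratio; a missing point means that no peak was listed. Circles are untreated and squares IFN-γ-treated libraries: at LMO7 the WT libraries had 75 and 86 tags and the FLI1-KO libraries 8 and 15, and at CBX5 they had 11 and 20 against 98 and 95.

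Among distal peaks that were lower in sgFLI1, a pair of intronic regions of SEMA5A, an axon guidance gene, had 99 and 12 and then 81 and 13 tags in the untreated libraries (log2 ratios -3.04, -4.04 to -2.18, and -2.64, -3.61 to -1.79). The first had 100 tags in WT-IFN-γ and no sgFLI1-IFN-γ peak, and the second had 74 and 9. MGLL, the monoacylglycerol lipase gene, held an intronic peak of 93 and 18 tags untreated and 125 and 17 treated. An intron of SLC25A21, also among the genes richest in WT-only peaks, had 56 and 10, then 50 and 9. Regions nearest PRICKLE1, COL12A1 and MANEA had 60 to 77 tags in WT and 9 to 14 in sgFLI1. In the treated pair the MANEA region had 74 and 18 tags, and the PRICKLE1 and COL12A1 regions were listed in WT-IFN-γ alone (36 and 43 tags).

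The distal region with the highest ratio lay 31.7 kb upstream of a TSS of LPCAT1, a phospholipid acyltransferase gene, with 18 tags in WT, 142 in sgFLI1, 23 in WT-IFN-γ and 114 in sgFLI1-IFN-γ (2.98, 2.27 to 3.78, and 2.61 treated). Its printed window holds a RUNX and a C/EBP match. At the formyl peptide receptor genes of chromosome 19, a pair of peaks had 14 and 81 tags (nearest the TSS of FPR3) and 14 and 65 tags (nearest that of FPR1), and the treated FLI1-KO library had 66 and 65 there. The second had 15 tags in WT-IFN-γ. The first of them, with an AP-1 match, had no WT-IFN-γ peak. An intron of ARHGAP31, with a RUNX match, had 14 and 86 tags untreated and 86 in sgFLI1-IFN-γ, with none listed in WT-IFN-γ. The remaining regions were nearest CDH11, PLXNA1, SDCCAG8 and ENPP2, with 10 to 16 tags in WT and 51 to 84 in sgFLI1, and the treated pair had 10 to 24 and 41 to 64.

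Motif shares of distal peaks with a 2-fold ratio followed those of the only-peaks for AP-1 and RUNX. AP-1 letters stood in 41.5% of the 583 higher peaks (37.6 to 45.6%), 24.9% of the 273 lower peaks (20.2 to 30.4%) and 32.7% of all 15758 distal peaks. RUNX letters stood in 6.35% (4.64 to 8.63%), 0.733% (0.201 to 2.63%) and 2.58%. C/EBP matches were present in 18.7% of the lower peaks (14.5 to 23.7%) against 10.3% of the higher and 10.3% of all distal peaks, and FOX matches in 7.33% of the lower (4.79 to 11.0%), 1.37% of the higher and 3.52% of all. CTCF matches were fewer in both directions, at 6.59% of lower and 2.06% of higher peaks against 11.4% of all. Distal peaks with a RUNX match were at least 2-fold higher in 9.11% of 406 cases, against 3.56% of those without. Mean GC content was 44.9% in lower, 52.2% in higher and 52.5% in all distal windows. The median WT pileup was 55, 25 and 51 tags in the same order. The part of either in these motif shares was not tested.

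ETS letters did not accompany the 2-fold promoters. They stood in 665 of the 10730 windows within 1 kb of a TSS (6.20%), and in 0 of the 34 higher and 0 of the 55 lower ones, which allows up to 10.2% and 6.53% by the Wilson interval. Promoter peaks with the match had a median log2 ratio of -0.03 and those without it -0.01. C/EBP letters were present in 12 of the 55 lower promoters (21.8%, 12.9 to 34.4%) in 6 of the 34 higher ones (17.6%, 8.35 to 33.5%) and in 4.47% of all promoters. Mean GC content was 60.9% in lower, 54.9% in higher and 66.0% in all promoters. The bare GGAA core was not searched, so these shares are for the longer ETS letters alone. A match to these letters is a description of the window and not evidence of a bound factor.

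Promoters of the gene groups chosen for the study's question differed little, and so did those of all genes. Of the 11940 protein-coding genes with a promoter ratio, 11467 lay within 1.5-fold. A promoter ratio was available for 11940 of 19970 protein-coding genes, of which 38 (0.318%) were at least 2-fold higher and 42 (0.352%) at least 2-fold lower in sgFLI1. A further 546 genes (2.73%) had promoter peaks in sgFLI1 alone and 455 (2.28%) in WT alone. The 17 lists held 361 genes. LOX, the collagen cross-linking enzyme of the mesenchymal list, was lower (52 and 22 tags, log2 ratio -1.42, -2.21 to -0.68; treated 44 and 23), and none of the other 12 mesenchymal genes with a ratio was past 2-fold. List medians ran from -0.15 in the 25 ribosomal protein genes, a reference, to 0.11 in the 15 inflammatory genes with a ratio, and the median of all genes was -0.01.

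FLI1 itself had a weak WT-only promoter peak of 12 tags, 944 bp upstream of the canonical TSS (chr11:128692854-128693610). It recurred in WT-IFN-γ with 22 tags, and neither FLI1-KO library listed it. Inside the gene 3 intronic peaks were shared, with 20, 21 and 9 tags in WT and 21, 31 and 15 in sgFLI1, and 2 more intronic peaks of 13 and 14 tags were sgFLI1-only and recurred in sgFLI1-IFN-γ with 10 and 9 tags. Peak lists do not show the edited bases, so they do not check the knockout. In the ETS list, to which FLI1 belongs, 17 of 27 genes had a ratio, from -0.62 to 0.58, with a median of 0.05, and none reached 2-fold.

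At the acetyltransferase genes on which the study focused, the strongest promoter peaks were close to equal in accessibility. The study reported lower CBP and KAT5 mRNA and protein in FLI1-KO cells, measures that differ from pileup. CREBBP, the gene of the coactivator CBP, had 86 and 75 tags at its stronger promoter peak (0.21, -0.26 to 0.67) and 45 and 25 at a second one 660 bp inside the gene (35 and 25 treated), and KAT5 had 212 and 172 (-0.10, -0.40 to 0.20). The CREBBP ratio of 0.21 includes the bin correction, and chromosome 16 had a median log2 ratio of -0.30 before it. Inside CREBBP an intronic peak of 38 tags (chr16:3771199-3772631) was WT-only and recurred in WT-IFN-γ with 37 tags, and neither FLI1-KO library listed it. A second WT-only peak there had 11 tags and recurred with 15, and an sgFLI1-only intronic peak had 12 tags. All 15 acetyltransferase and bromodomain genes lay within 1.5-fold, BRD2 with 170 and 195 tags among them. Among all genes with a ratio, 11467 of 11940 did so. IDO1, which encodes the enzyme that opens the kynurenine pathway, had no peak in either untreated library. The 13 kynurenine and aryl hydrocarbon receptor genes with a ratio ranged from -0.42 to 0.16, with TIPARP at 235 tags in both libraries and ARNT at 154 and 142.

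CIITA, the master regulator of MHC class II genes in the interferon list, had a promoter peak in sgFLI1 alone without treatment (20 tags), whereas with IFN-γ it had 128 tags in WT and 27 in FLI1-KO cells. HLA-C in the antigen presentation list also had a promoter peak in sgFLI1 alone (35 tags), with 59 and 35 tags in the treated pair. Reads at HLA genes can be shared with near-identical copies, so this value is uncertain. All 16 antigen presentation genes with a ratio lay within 1.5-fold, as did 11467 of all 11940 genes. Of the 16, however, 2 were at least 2-fold higher without the bin correction.

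The few promoter peaks of epithelial genes found in 1 untreated list alone were weak (11 to 21 tags) and went in both directions. Over all protein-coding genes, 2.28% had promoter peaks in WT alone and 2.73% in sgFLI1 alone. Of 25 squamous and basal genes, 13 had a ratio and none reached 2-fold, with KRT17 the lowest (67 and 39 tags, log2 ratio -0.65; 64 and 18 treated). KRT17 was picked after its values were seen. DSC3, a desmosomal cadherin gene, had a promoter peak in WT alone (21 tags, and 18 in WT-IFN-γ alone), and FAT2 one in sgFLI1 alone (11 tags, and 13 in sgFLI1-IFN-γ alone). Of the 20 simple epithelial and junction genes, MARVELD3 had a promoter peak in WT alone (18 tags, and 17 in WT-IFN-γ alone) and CLDN1, a tight junction claudin, in sgFLI1 alone (13 tags, and 11 in sgFLI1-IFN-γ alone). ESRP1, a splicing regulator of epithelia, was listed in sgFLI1 alone (12 tags) but in both treated libraries. The AP-1 factor BATF was listed in WT alone with 10 tags and in no treated library.

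WWC1, of the YAP and TEAD target list, had a promoter peak of 47 tags in sgFLI1 and none in WT, yet both treated libraries had one (53 and 42 tags). NOTCH3, a Notch receptor gene, had 11 tags in WT and 31 in WT-IFN-γ, with no FLI1-KO peak, and WNT10A had 27 tags in WT alone but 28 in both treated libraries. From the list of megakaryocyte, endothelial and blood genes, among which FLI1 is known to act, 9 of 25 had a ratio and none reached 2-fold. Endothelial CDH5 (18 tags) and LMO2 (10 tags) were listed in WT alone and TIE1 (8 tags) in sgFLI1 alone, but CDH5 was listed in sgFLI1-IFN-γ alone (17 tags) and the other two in neither treated library. The 20 cell cycle genes with a ratio lay within 1.5-fold, E2F3 (200 and 192 tags) and CCNE2 (212 and 184) included. RPL7 (226 and 189) of the ribosomal reference did too, as did 11467 of all 11940 genes with a ratio. No gene of the p53, inflammatory or TGF-β and BMP lists reached 2-fold. Without the bin correction, 1 inflammatory and 1 ribosomal gene were at least 2-fold higher. Among their strongest promoters were DDB2 (222 and 157) and RRM2B (220 and 200), RELB (141 and 116) and NFKB2 (140 and 135), and ID1 (197 and 152).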

How the data were processed

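ATAC-seq peak lists of 4 HK1 libraries were used, 1 per group, grouped by the genotype and treatment labels. As the methods and the submitters' processing notes state, Trimmomatic trimming and Bowtie2 2.3.4.1 alignment on GRCh38 came first. The authors then removed alignments with a mapping quality under 30 and duplicates, and called peaks with MACS2 2.1.2 at a q-value of 0.05. The methods name a reproducibility filter; whether a list is from before or after it, from 1 replicate or pooled ones, and whether tags were shifted for the transposase, is not given in the sources used here. The deposited columns are a score, a fold enrichment (a ratio), a −log10 p and a −log10 q per peak, as MACS writes them.

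From the deposited fold and −log10 p, a whole-number summit pileup was recovered for 100% of peaks, to within 0.001 of −log10 p. Tag density was the lowest background of a list over its shortest peak. Ratios used one-to-one peaks with at least 60 tags and were centred per 10 Mb bin with at least 20 peaks (the chromosome's median otherwise). Genes came from GENCODE 44 (protein-coding). Named items were the 12 promoters and 8 distal peaks with the most extreme ratios in each direction, the 10 peaks of each class with the largest margin, the 8 genes with the largest surplus in each direction, 4 loci of the study, and in each list the members past 2-fold or in 1 library, or the 2 with the most tags. Treated values are those of the highest peak overlapping the WT peak. Some items named by this rule are not reported here. Members and lists were chosen with earlier results of these data known. Of the 19 motifs searched on both strands, those not described above are ACATTCCA for TEAD, TGACGTCA for CRE, ACATGTC for the p53 family half-site, AGATAAG for the zinc finger family of GATA1, ACAATGG for SOX, CAGGTG for ZEB, GGGCGGGG for KLF and SP, TGCGCATGC for NRF1, CCAATCA for NF-Y, GGGNNTTCC for NF-kappaB, and NFI. Matches of different motifs could overlap, and windows of peaks with a ratio were centred on the WT summit. The steps were tested on simulated data. Python 3.11.15, numpy 2.4.6, pandas 2.3.3, scipy 1.17.1, matplotlib 3.10.9 and samtools 1.23.1 were used.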

Additional observations from a re-analysis of the deposited data

Results flagged for a closer look

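Values that took the opposite direction between genotypes in the untreated and the treated pair are given here. The difference was not tested, as each group held 1 library. The sgFLI1 list was longer than the WT list by 3574 peaks, whereas the difference between sgFLI1-IFN-γ and WT-IFN-γ was -7547 peaks. The number of peaks in 1 list of the pair was higher on the FLI1-KO side by 3201 untreated and differed by -7689 treated (11877 against 19566). Shared peaks past 2-fold were more often higher than lower in sgFLI1, by 305 untreated, and the same count was -234 treated (451 higher and 685 lower) over the 28536 peaks that the treated pair itself shared. Over the 27436 untreated shared peaks with both treated peaks, the treated pair had 534 higher and 362 lower, the same direction as untreated. WT-IFN-γ was the deepest and sgFLI1-IFN-γ the shallowest library (8.84 and 6.86 tags per kb), and the part of depth in these numbers was not tested.

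Single loci did the same. The log2 ratio of the CARD10 promoter was -1.58 untreated and 0.16 treated. GPC5 held 12 more peaks in sgFLI1 than in WT, and the difference was -2 in the treated pair.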

How the results depend on the processing

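With 1 library per group, differences of genotype, clone, culture and library preparation cannot be told apart, and a peak missing from a list shows only that its pileup was under the listing limit of that library. No paired analysis was possible because each group held 1 library.

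With −log10 q of at least 5 in both lists there were 8200 WT-only and 9293 sgFLI1-only peaks, with promoter shares of 11.4% and 11.2%. With that limit on the peak itself and any peak counting in the other library, there were 6053 and 6802. All of them would have been listed at the other depth, which the stricter limit made nearly certain in advance. A treated peak in their own genotype alone was found for 2460 and 2233 of them. Promoter shares were 15.7% and 15.1% when shared meant summits within 250 bp, and 5.40% and 4.73% within 1 kb of a TSS. At least 30 summed tags gave 1419 higher and 862 lower peaks, and at least 100 gave 184 and 77. The other alternatives kept counts within 1.5 times, with WT-only shares from 20.2% to 27.7%. Scaling by background, chosen after the data were seen, raised the WT-only share that would have been listed to 95.3%. Without the bin correction there were 777 higher and 426 lower peaks, 581 and 281 of them in common with the corrected calls, and the 40 named peaks kept their direction.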

Other observations

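Runs of at least 6 consecutive peaks found in 1 list numbered 65 for WT-only and 98 for sgFLI1-only peaks. After the one at SOX5, the longest WT-only runs had 13 peaks each, on chromosome 18 near NETO1 and on chromosome 7 at FOXP2, a forkhead transcription factor gene. In each of the 2, 9 of the 13 had a peak in WT-IFN-γ, and 0 and 2 of them in sgFLI1-IFN-γ. Chromosome 18 had a median log2 ratio of -0.35 before the bin correction, and 31.5% of its WT peaks were WT-only. Runs were not corrected for such shifts, whose part was not tested. The longest sgFLI1-only runs had 13 peaks of a median of 9 tags, near DIPK2A on chromosome 3 and at FAM135B on chromosome 8, and 1 of the 13 in each had a peak in sgFLI1-IFN-γ. A run of 10 on chromosome 3 near PRICKLE2 and ADAMTS9, with a median of 17.5 tags, had 8 peaks in sgFLI1-IFN-γ and 2 in WT-IFN-γ.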
